A study of Mus musculus with 9 samples.

Results

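The fibroblast growth factor (FGF) family, and the genes that report on and restrain its signal, were followed through mammary tumours of MMTV-Wnt1 mice. The set held 40 genes chosen by symbol: 17 FGFs, 5 receptors, a secreted FGF carrier, 2 receptor adaptors, 3 ETS transcription factors, 9 feedback inhibitors and 3 further genes that respond to ERK. Each gene was represented by the probe set that carried its symbol alone, or by the one with the highest mean where there were several. This gave values for 38 of the 40 genes, out of 22180 genes with such a probe set, and all 38 were among the 17478 genes that passed a filter on low values and were tested. Frs2 and Fosl1 were not analysed here.

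RNA from frozen mammary tissue of 9 female FVB mice was measured on Affymetrix Mouse Gene 2.0 ST arrays, 1 array per mouse and 3 per group. Normal glands came from littermates with the genotype Wild-type Wnt1, aged 533 to 556 days. Tumours came from mice with the genotype Wnt1+/-, in which a transgene drives Wnt1 from the promoter of mouse mammary tumour virus, and were collected once they measured 20 mm. Mice with tumours labelled non-metastatic (1 to 3) had tumour onset at 306, 192 and 247 days and collection at 354, 222 and 298 days. Those with tumours labelled metastatic (1 to 3) had onset at 251, 194 and 242 days and collection at 300, 281 and 284 days. Normal glands were thus the oldest, and a difference from them cannot be told apart from one of age. The part of the time from onset to collection in the values was not tested. All 9 mice, controls included, drank 6% sucrose with 200 ug/ml doxycycline. Values are on the log2 scale, where a difference of 1 is a doubling, and a number of 3 arrays per group limits their precision. The probe set for Wnt1 read 5.45 to 5.71 in normal glands and 11.20 to 12.40 in tumours. The mean of 10 luminal epithelial markers was 8.39 to 10.10 in normal glands and 10.02 to 10.72 in tumours, and that of 9 white adipocyte markers 10.79 to 11.87 and 6.12 to 7.52. Normal gland 2 stood apart: 10 skeletal muscle markers averaged 10.03 there, against 5.97 and 6.28 in the other normal glands, and 9 markers of differentiated epidermis 10.89 against 5.62 and 5.68. The muscle markers averaged 7.21, 5.44 and 7.89 in non-metastatic tumours 1 to 3. In metastatic tumours 1 to 3 they averaged 5.58, 5.93 and 5.72.

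FGFs are secreted proteins that bind heparan sulphate and activate receptor tyrosine kinases, which signal through the adaptor Frs2, RAS and the kinase ERK. ERK switches on the ETS factors Etv1, Etv4 and Etv5 and a set of inhibitors, among them Dusp6, the Sproutys and the Spreds, that damp the same cascade. In the embryonic mammary gland Fgf10 from the mesenchyme acts on Fgfr2 in the epithelium, and Fgf3, Fgf4 and Fgf8 are known sites of proviral insertion in mammary tumours caused by mouse mammary tumour virus. Other receptor tyrosine kinases also feed into ERK, and the arrays measured RNA, not signalling.

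For 5 genes, Etv5, Dusp6, Spred1, Fgf10 and Fgf2, the difference between all tumours and normal glands described below passed the test under each of 16 alternative settings, and the 250 bases before their annotated start are therefore shown. The sequences are from RefSeq on GRCm38.p6, at chr16:22439571-22439820 (minus strand), chr10:99262981-99263230 (plus strand), chr2:117120821-117121070 (plus strand), chr13:118714449-118714698 (plus strand) and chr3:37348403-37348652 (plus strand), and each reads 5′ to 3′ on the strand of its gene. Capitals mark matches on either strand to CCGGAAG or AGGAAG, letters typical of ETS factor sites. Etv5 has a second annotated start, whose window is not shown.
Etv5: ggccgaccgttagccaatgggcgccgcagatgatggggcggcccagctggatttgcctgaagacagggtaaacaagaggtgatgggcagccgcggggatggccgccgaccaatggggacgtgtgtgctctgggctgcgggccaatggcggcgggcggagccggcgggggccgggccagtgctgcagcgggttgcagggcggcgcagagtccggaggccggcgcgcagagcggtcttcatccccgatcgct
Dusp6: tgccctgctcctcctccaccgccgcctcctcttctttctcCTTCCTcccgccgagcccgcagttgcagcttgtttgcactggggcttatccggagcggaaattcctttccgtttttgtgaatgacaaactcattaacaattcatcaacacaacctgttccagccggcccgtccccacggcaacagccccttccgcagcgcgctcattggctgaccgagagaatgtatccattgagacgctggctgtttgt
Spred1: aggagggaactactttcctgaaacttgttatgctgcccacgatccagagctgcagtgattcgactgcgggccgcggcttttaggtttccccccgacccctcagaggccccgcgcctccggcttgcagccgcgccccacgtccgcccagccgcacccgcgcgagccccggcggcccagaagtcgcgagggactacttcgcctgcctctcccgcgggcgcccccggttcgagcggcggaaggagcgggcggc
Fgf10: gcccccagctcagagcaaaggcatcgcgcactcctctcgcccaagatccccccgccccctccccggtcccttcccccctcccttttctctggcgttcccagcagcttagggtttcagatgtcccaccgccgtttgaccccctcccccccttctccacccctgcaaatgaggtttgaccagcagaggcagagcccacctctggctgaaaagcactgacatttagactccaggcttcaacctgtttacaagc
Fgf2: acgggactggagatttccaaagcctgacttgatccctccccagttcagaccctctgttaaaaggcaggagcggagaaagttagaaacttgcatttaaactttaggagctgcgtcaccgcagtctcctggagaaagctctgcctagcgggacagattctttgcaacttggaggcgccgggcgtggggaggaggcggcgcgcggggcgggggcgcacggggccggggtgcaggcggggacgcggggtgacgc

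Of these 5 windows, that of Dusp6 held 1 match to AGGAAG, on the minus strand 210 bases before the start, and no other window held a match. Windows of 250 bases were found for 28 of the 40 genes, 37 windows in all because some genes have several starts. Of the 37, 9 held AGGAAG (24.3%), against 29.5% of all 32851 windows, and 2 held CCGGAAG (5.4%), against 6.9%. The letters CTTTGAT or CTTTGAA, typical of TCF sites, stood in 1 of the 37 windows (2.7%) and in 7.5% of all, and TGACTCA, typical of AP-1 sites, in 1 (2.7%) and in 4.5% of all. Both strands were searched. The letters GGAAG follow a C in one ETS pattern and an A in the other, and none of the 37 windows held both. A match is a description and no evidence of binding, and the absence of one says only that these letters are not in the window.

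Against normal gland, tumours had more RNA of the 3 ETS factors and of 3 feedback inhibitors and less of 4 FGFs. With both tumour groups in 1 comparison, 7 of the 38 genes rose and 4 fell at an adjusted p under 0.05 in limma, 28.9% in all, while 22.8% of all genes tested passed (13.6% rose and 9.13% fell). For 13 of the 38 genes no tumour overlapped with any normal gland, as for 26% of all genes. The median log2 change was 5e-04 over the 38 genes and 0.04 over all genes. Non-metastatic tumours alone gave 4 genes that rose and 4 that fell (21.1%), against 18.8% of all genes (11.2% rose and 7.6% fell). Metastatic tumours alone gave 8 that rose and 3 that fell (28.9%), against 13.3% (7.35% rose and 6% fell). These comparisons share the same 3 normal glands. The count with both tumour groups was 6 without normal gland 1 and 5 without normal gland 2, where 11.4% and 10.9% of all genes passed. The non-metastatic count was 5 without normal gland 1, normal gland 2 or non-metastatic tumour 2, where 7.7%, 8.68% and 8.72% of all genes passed. The metastatic count was 6 and 5 without normal glands 1 and 2, where 4.54% and 4.93% of all genes passed. It was 5, 5 and 4 without metastatic tumours 1, 2 and 3, where 3.59%, 6.12% and 3.66% of all genes passed.

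**Figure D1:**
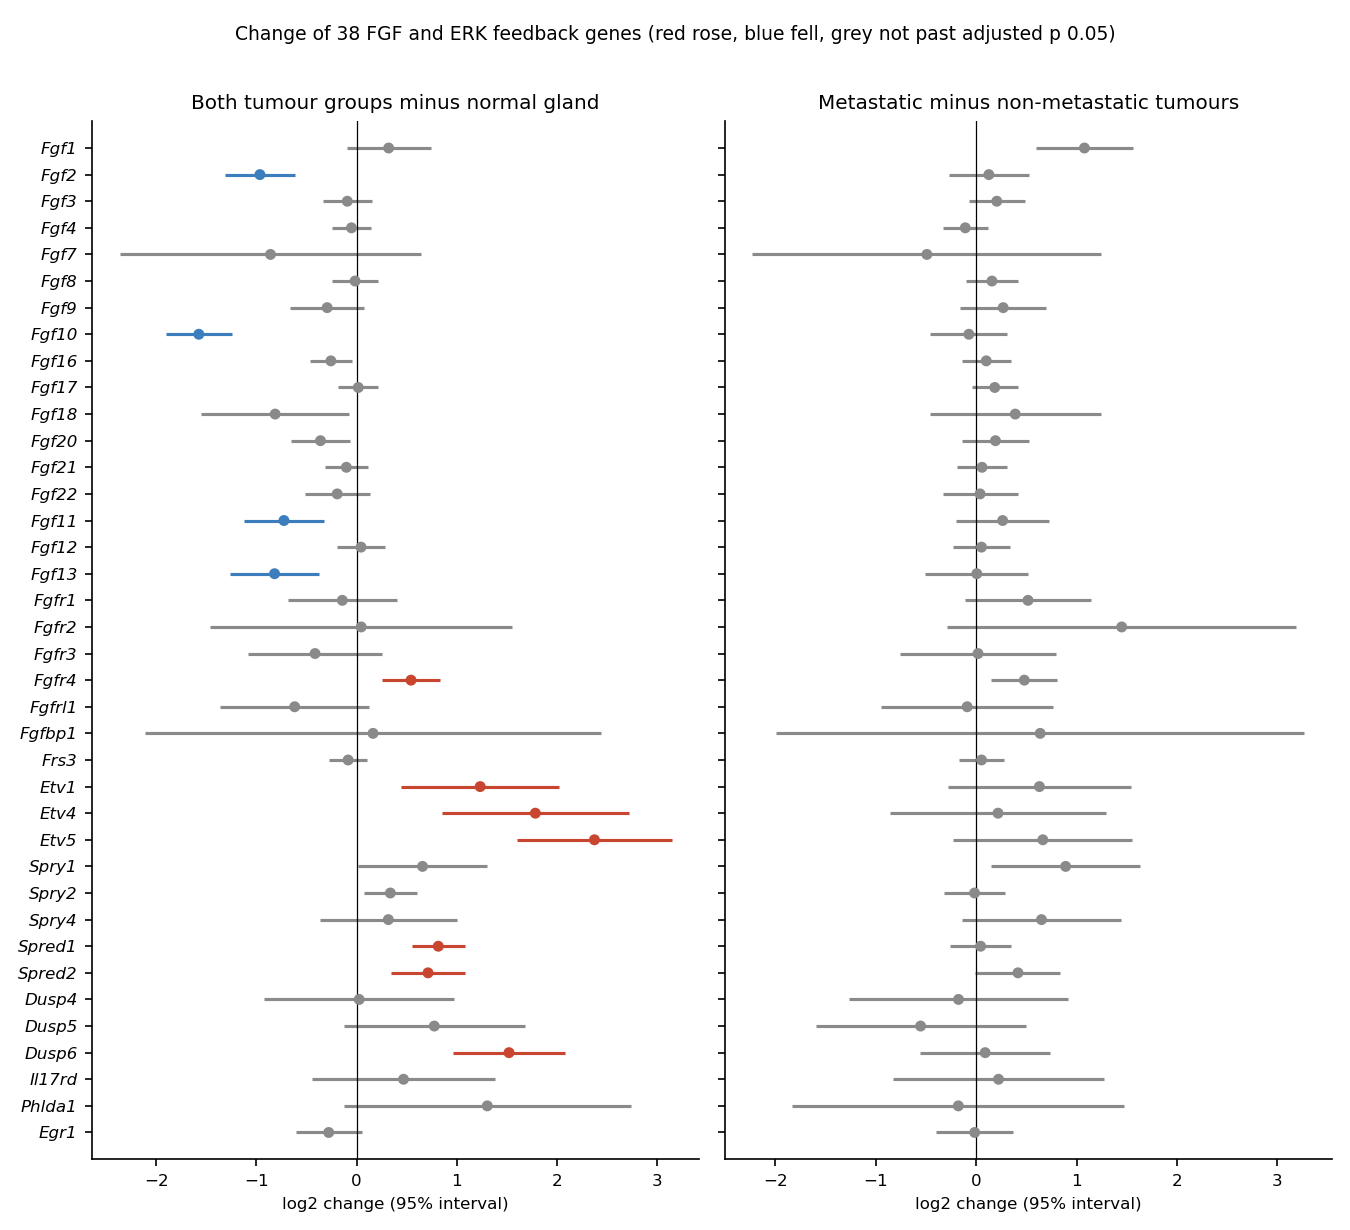
Log2 change (horizontal axis) of 38 FGF and ERK feedback genes (vertical axis), with points for the estimate and lines for limma's 95% interval; left, both tumour groups minus normal gland, right, metastatic minus non-metastatic tumours, 3 arrays per group. On the left 7 genes rose, led by Etv5 at 2.37, and 4 fell, led by Fgf10 at -1.57, while on the right none passed the threshold.

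The 3 ETS factors of the PEA3 group, which carry ERK activity into transcription, all rose, against 13.6% of all genes. Etv5 read 8.28, 7.50 and 8.39 in normal glands 1 to 3, 10.00, 9.64 and 10.64 in non-metastatic tumours 1 to 3 and 10.07, 11.27 and 10.94 in metastatic tumours 1 to 3. Each tumour lay above each normal gland, and the tumour groups overlapped. The change was 2.37 (SE 0.34, adjusted p = 0.00412), or 5.18-fold. It was 2.04 in non-metastatic tumours (SE 0.39, adjusted p = 0.0133) and 2.70 in metastatic tumours (SE 0.39, adjusted p = 0.00784). A second probe set for Etv5 read 6.70 to 6.93 in normal glands and 6.88 to 7.09 in tumours, a difference of 0.13. Which of the probe sets measures the main transcript cannot be settled from the values, so the 5.18-fold change holds for the brighter one alone, and the mean of both probe sets gave a change of 1.25 (adjusted p = 0.00474).

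Etv4 was low and even in normal glands, at 6.15, 6.02 and 5.97. It read 6.60, 7.92 and 8.64 in non-metastatic tumours and 7.49, 8.45 and 7.87 in metastatic tumours. All tumours exceeded all glands, non-metastatic tumour 1 by the least. The change was 1.78 (SE 0.41, adjusted p = 0.0179), or 3.44-fold, with adjusted p = 0.0585 and 0.0651 without normal glands 1 and 2, in a range from 0.0051 to 0.0651 over the alternatives. Etv4 passed in each tumour group, at 1.67 in non-metastatic (SE 0.47, adjusted p = 0.0421) and 1.89 in metastatic tumours (SE 0.47, adjusted p = 0.0367). The first of these calls was lost without any 1 of the 9 arrays but non-metastatic tumour 1, and the second without any 1 of the normal glands, the metastatic tumours or non-metastatic tumour 2 (adjusted p up to 0.116 and 0.1). They held under 6 and 10 of 17 alternatives.

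Etv1 read 8.63, 8.22 and 7.53 in normal glands, 9.11, 8.80 and 9.23 in non-metastatic tumours and 9.15, 10.54 and 9.33 in metastatic tumours. The glands did not overlap with the tumours, although non-metastatic tumour 2 and normal gland 1 were close. The change was 1.23 (SE 0.34, adjusted p = 0.036), a second probe set differed by 1.07, and the call was lost under 8 of 16 alternatives, among them leaving out any 1 of the normal glands, the non-metastatic tumours or metastatic tumour 3 (adjusted p from 0.0266 to 0.109). Etv1 passed in metastatic tumours (1.55, SE 0.40, adjusted p = 0.0405), a call lost without any 1 array (adjusted p up to 0.0996). That call held under 5 of 17 alternatives. In non-metastatic tumours Etv1 missed the threshold (0.92, SE 0.40, adjusted p = 0.143). Between the tumour groups it differed by 0.63 (SE 0.40, adjusted p = 0.882). Of the 10 luminal epithelial markers, 5 rose with both tumour groups together (50%, against 13.6% of all genes). The part of a larger epithelial share in the ETS and feedback values was not tested.

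Of the 9 feedback inhibitors, 3 rose (33.3%, against 13.6% of all genes), none fell and 6 did not pass. Dusp6, a phosphatase that removes the activating phosphates of ERK, read 9.87, 9.45 and 9.08 in normal glands, 10.75, 11.33 and 10.75 in non-metastatic tumours and 10.74, 11.53 and 10.83 in metastatic tumours. All 6 tumours lay above all 3 glands. Dusp6 changed by 1.52 (SE 0.24, adjusted p = 0.00593), or 2.87-fold. A second probe set read 3.97 to 4.77 in normal glands, below the 30th percentile of those arrays, and its difference is not used. With the brighter probe set, Dusp6 changed by 1.48 in non-metastatic tumours (SE 0.28, adjusted p = 0.0136) and by 1.57 in metastatic tumours (SE 0.28, adjusted p = 0.015).

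Spred1 and Spred2 bind RAS pathway proteins at the membrane and hold back the activation of RAF. Spred1 read 9.32, 9.19 and 9.16 in normal glands, 9.75, 10.18 and 10.12 in non-metastatic tumours and 10.17, 9.99 and 10.03 in metastatic tumours. The glands differed little among themselves (SD 0.09, n = 3), and all tumours stood above them. Spred1 changed by 0.81 (SE 0.12, adjusted p = 0.00412), or 1.76-fold. It passed in non-metastatic (0.79, SE 0.13, adjusted p = 0.00986) and in metastatic tumours (0.84, SE 0.13, adjusted p = 0.0106).

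Spred2 read 8.89, 8.68 and 8.61 in normal glands, 8.95, 9.23 and 9.52 in non-metastatic tumours and 9.41, 9.93 and 9.61 in metastatic tumours. Non-metastatic tumour 1 was barely above normal gland 1, and the tumour groups overlapped. The change was 0.71 (SE 0.16, adjusted p = 0.017), with adjusted p = 0.0645 without normal gland 2 in a range from 0.0114 to 0.0645 over the alternatives. Spred2 passed in metastatic tumours (0.92, SE 0.18, adjusted p = 0.0205), though not without normal gland 2 or metastatic tumour 2 or 3 (adjusted p up to 0.0645), and not in non-metastatic tumours (0.50, SE 0.18, adjusted p = 0.0925).

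The 3 Sproutys, which inhibit signalling by receptor tyrosine kinases, did not pass in any comparison. With both tumour groups together Spry1 differed by 0.66 (SE 0.28, adjusted p = 0.128), and in metastatic tumours alone by 1.10 (SE 0.32, adjusted p = 0.0584). Spry2 read 8.00 to 8.34 in normal glands and 8.37 to 8.69 in tumours, without overlap (0.34, SE 0.11, adjusted p = 0.0667). Spry4 read 7.09 to 7.78 in normal glands and 7.35 to 8.97 in tumours (0.32, SE 0.30, adjusted p = 0.482). Il17rd, an inhibitor of FGF receptor signalling also called Sef, read 6.97 to 7.28 and 6.90 to 8.83 (0.47, SE 0.40, adjusted p = 0.435).

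Among the remaining phosphatases, Dusp4, which acts in the nucleus on ERK and related kinases, spanned 8.07 to 10.09 in normal glands alone and 8.60 to 9.52 in tumours. Dusp5, a nuclear ERK phosphatase, read 7.25, 7.08 and 7.49 in normal glands, 8.46, 9.01 and 7.52 in non-metastatic tumours and 8.51, 6.94 and 7.87 in metastatic tumours. Metastatic tumour 2 lay below every normal gland, and the change was 0.78 (SE 0.39, adjusted p = 0.193).

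**Figure D2:**
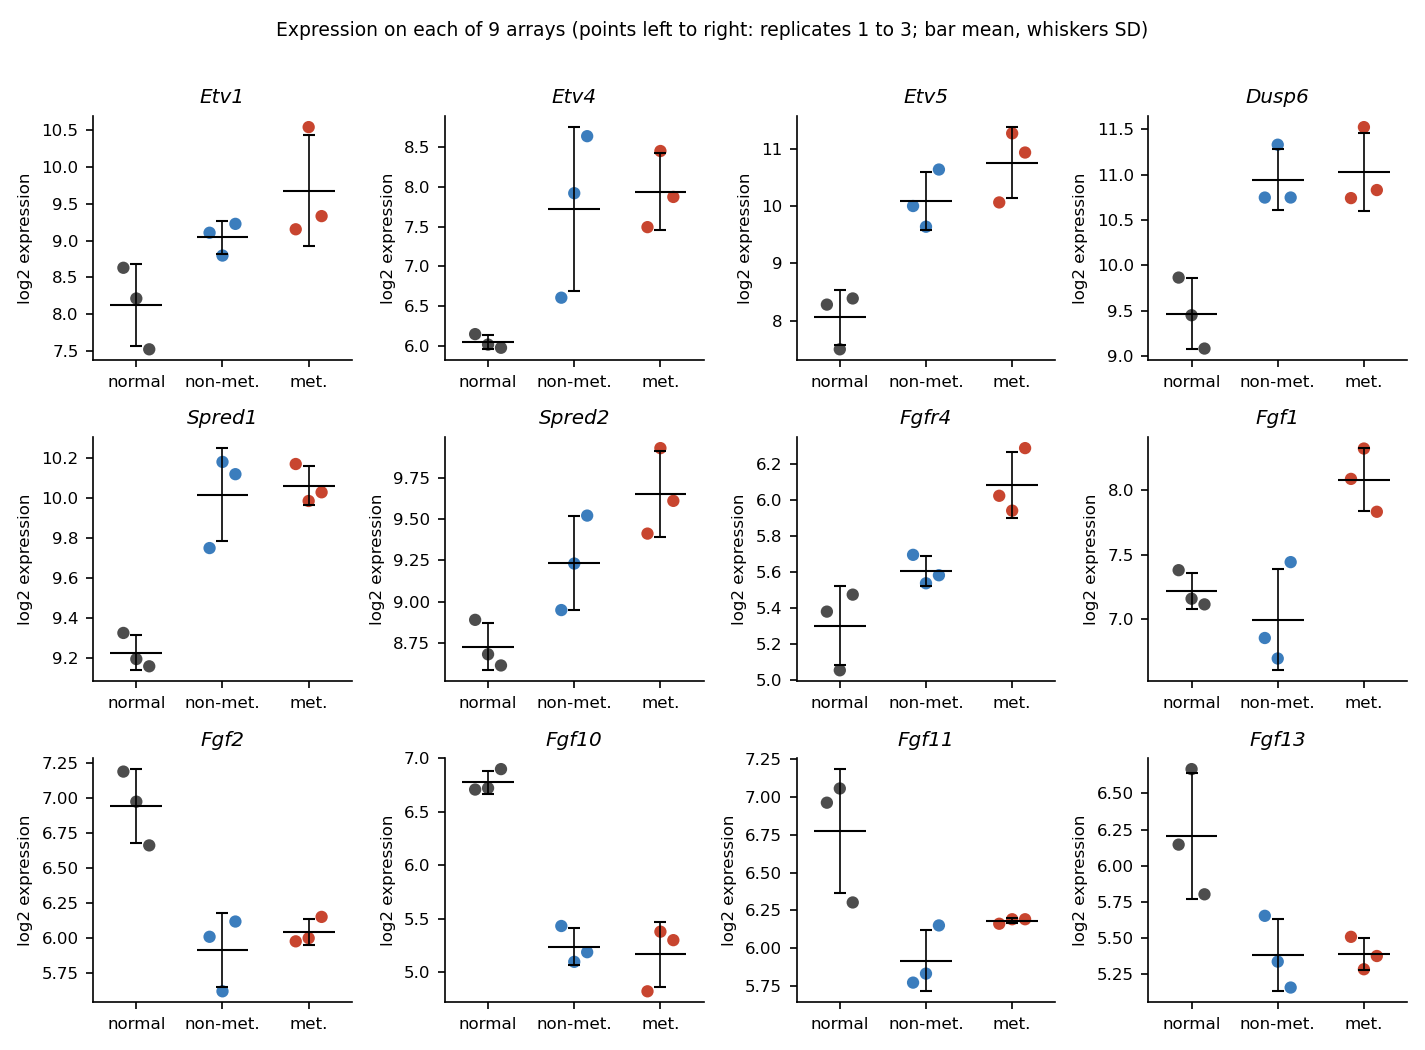
Log2 expression (vertical axes, each with its own range) of 12 genes on each of the 9 arrays, in normal gland, non-metastatic and metastatic tumours (horizontal axes); bars show means and whiskers SD (n = 3). Etv5, Dusp6 and Spred1 were higher in all 6 tumours, Fgf2 and Fgf10 lower, and Fgf1 was highest in the 3 metastatic tumours.

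The other measured ERK response genes did not pass. Egr1, an immediate early transcription factor, read 8.73 to 9.26 in normal glands and 8.52 to 8.88 in tumours (-0.28, SE 0.14, adjusted p = 0.201). Phlda1, whose RNA is induced by growth factors, read 9.72, 7.06 and 10.18 in normal glands, 10.86, 10.39 and 9.87 in non-metastatic tumours and 10.41, 10.17 and 10.02 in metastatic tumours. Its value in normal gland 2 was far below all others, and the change of 1.30 did not pass (SE 0.62, adjusted p = 0.168).

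Of the 14 secreted FGFs, 2 fell with both tumour groups together (14.3%), none rose and 12 did not pass. Of all genes, 9.13% fell and 22.8% passed in either direction. Fgf10, the mesenchymal ligand of epithelial Fgfr2, read 6.71, 6.72 and 6.90 in normal glands, 5.43, 5.09 and 5.18 in non-metastatic tumours and 4.82, 5.38 and 5.30 in metastatic tumours. The glands and the tumours were far apart, the tumour groups overlapped, and metastatic tumour 1 lay just below the 30th percentile of its array. Fgf10 changed by -1.57 (SE 0.14, adjusted p = 0.000899), which is 2.98-fold lower, and a second probe set differed by -1.70. It fell in non-metastatic (-1.54, SE 0.17, adjusted p = 0.0026) and in metastatic tumours (-1.61, SE 0.17, adjusted p = 0.00241).

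Fgf2, the basic FGF stored in the extracellular matrix, read 7.19, 6.98 and 6.66 in normal glands, 6.01, 5.62 and 6.12 in non-metastatic tumours and 5.98, 6.00 and 6.15 in metastatic tumours. No tumour reached the lowest gland. The change was -0.96 (SE 0.15, adjusted p = 0.00563), or 1.95-fold lower. It was -1.03 in non-metastatic tumours (SE 0.17, adjusted p = 0.0101) and -0.90 in metastatic tumours (SE 0.17, adjusted p = 0.0187). The latter call was lost without normal gland 1 or 2 or any 1 metastatic tumour (adjusted p up to 0.0661).

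Fgf7, the keratinocyte growth factor made by fibroblasts, read 6.92, 7.27 and 6.44 in normal glands, 5.54, 5.01 and 8.25 in non-metastatic tumours and 5.90, 6.21 and 5.21 in metastatic tumours. Non-metastatic tumour 3 held the highest value of all 9 arrays, and the other 5 tumours lay below the glands. Its change of -0.86 did not pass (SE 0.65, adjusted p = 0.383), and was -1.35 without non-metastatic tumour 3 (adjusted p = 0.0195, in a range up to 0.636 over the alternatives).

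Fgf18, a ligand known from cartilage, bone and lung development, read 6.48, 7.72 and 6.61 in normal glands, 6.35, 5.36 and 6.07 in non-metastatic tumours and 6.57, 6.35 and 6.03 in metastatic tumours. Normal gland 2 was high, the groups overlapped, and the change of -0.81 did not pass (SE 0.32, adjusted p = 0.104).

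Stromal and fat markers were lower in the same tumours. Of 10 fibroblast markers, 3 fell (30%, against 9.13% of all genes). Their mean was 10.55 to 10.74 in normal glands, 8.87, 6.97 and 9.85 in non-metastatic tumours and 9.25, 9.52 and 8.21 in metastatic tumours. Among tumours it was highest in non-metastatic tumour 3, the tumour with high Fgf7, and lowest in non-metastatic tumour 2, the tumour with the lowest Fgf7 and Fgf2. The order of the tumours was not the same throughout: Fgf10 was lowest in metastatic tumour 1, with a fibroblast mean of 9.25, and Fgf2 was highest among tumours in metastatic tumour 3, whose fibroblast mean of 8.21 was the second lowest. White adipocyte markers fell throughout, 9 of 9. The 8 blood endothelial markers averaged 8.95 to 9.38 in normal glands and 7.48 to 8.79 in tumours, with 3 that fell (37.5%). In whole tissue, fewer cells of a type and less RNA per cell cannot be told apart, and the part of these cells in the FGF values was not tested.

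**Figure D3:**
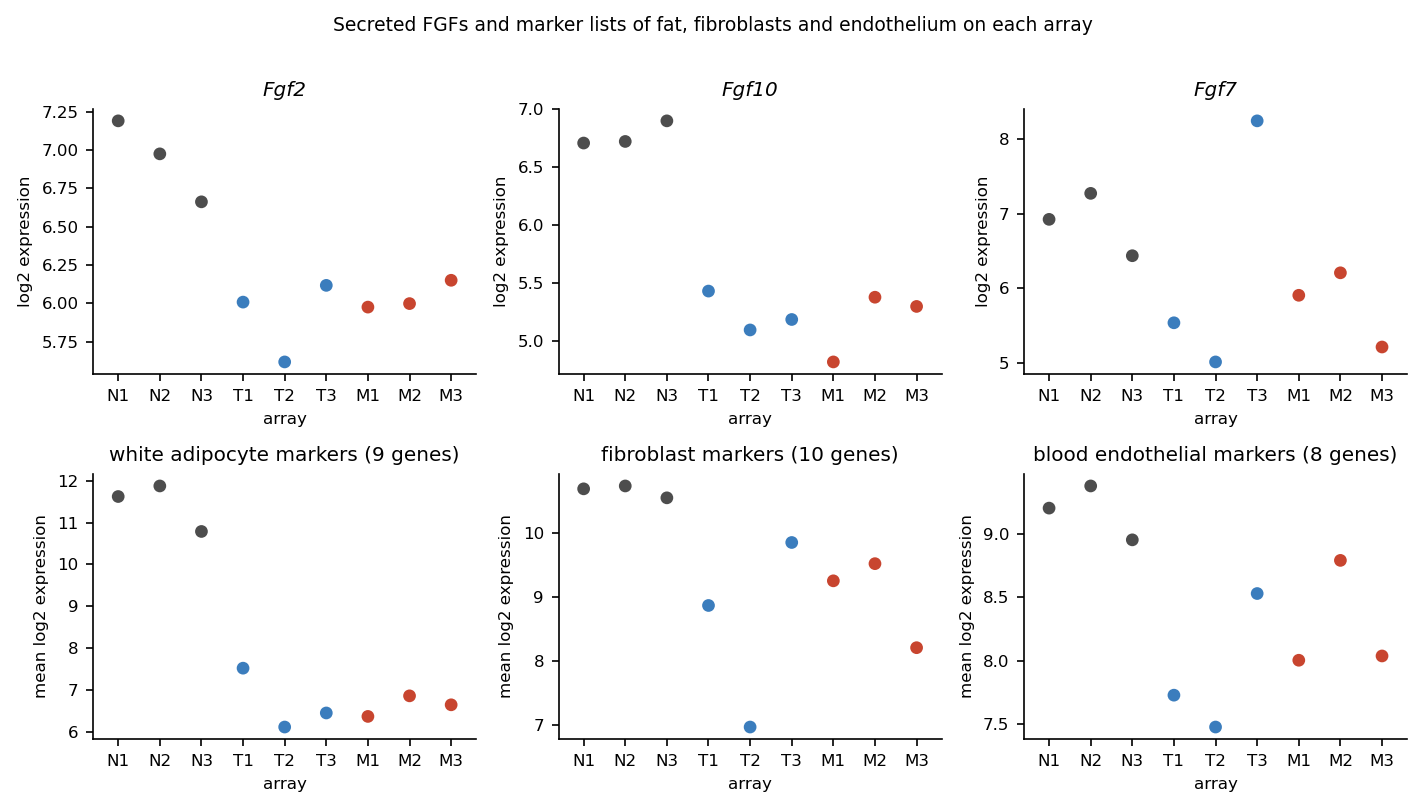
Log2 expression of Fgf2, Fgf10 and Fgf7 (top) and the mean log2 expression of 9 white adipocyte, 10 fibroblast and 8 blood endothelial markers (bottom) on each array (N normal gland, T non-metastatic tumour, M metastatic tumour, numbered by replicate). Fgf2, Fgf10 and all 3 lists were lower in every tumour than in every normal gland, while Fgf7 was highest in T3.

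The remaining secreted ligands did not pass with both tumour groups together. Fgf3, Fgf4 and Fgf8, the genes known from viral insertions, spanned 4.96 to 5.45, 5.76 to 6.07 and 5.60 to 5.97 over all 9 arrays, with changes of -0.09, -0.05 and -0.02. The 95% intervals of these changes reached from -0.34 to 0.15, from -0.24 to 0.14 and from -0.24 to 0.21. Fgf9, Fgf16 and Fgf20 differed by -0.29, -0.26 and -0.36, with adjusted p of 0.223, 0.0812 and 0.0751. Fgf17, Fgf22 and Fgf21, an endocrine factor released by the liver in fasting, differed by 0.02, -0.19 and -0.10. The values carry no detection call, so whether RNA of these genes was present was not tested.

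The intracellular FGFs are not secreted and are known to bind sodium channels, and 2 of 3 fell (66.7%, against 9.13% of all genes). Fgf13 read 6.15, 6.67 and 5.80 in normal glands, 5.65, 5.34 and 5.16 in non-metastatic tumours and 5.51, 5.29 and 5.38 in metastatic tumours. Fgf11 read 6.96, 7.06 and 6.30 in normal glands, 5.77, 5.83 and 6.15 in non-metastatic tumours and 6.16, 6.19 and 6.19 in metastatic tumours. For both genes the lowest gland, normal gland 3, stood just above the highest tumour. Fgf13 changed by -0.82 (SE 0.19, adjusted p = 0.0202) and Fgf11 by -0.73 (SE 0.17, adjusted p = 0.0218). Both calls were lost without normal gland 1 (adjusted p = 0.0619 and 0.0887) and without normal gland 2 (0.0603 and 0.0883), and the lowest values over the alternatives were 0.0097 and 0.00322. In non-metastatic tumours both passed, with adjusted p of 0.038 and 0.0243, and in metastatic tumours they gave 0.0478 and 0.0887. In non-metastatic tumours the call of Fgf11 was lost without normal gland 1 or 2 or non-metastatic tumour 1 or 2, and that of Fgf13 without any 1 array but normal gland 3 and non-metastatic tumour 1 (adjusted p up to 0.0818 and 0.101). In metastatic tumours that of Fgf13 was lost without any 1 array but normal gland 3 (up to 0.126). Over all alternatives the Fgf13 call held under 5 of 16 in non-metastatic and 3 of 16 in metastatic tumours. Quantile normalisation and median centring were among those that lost it in both. The Fgf11 call held under 11 of 17 in non-metastatic tumours and under 13 of 16 with both groups together. Fgf12 spanned 4.98 to 5.36 over all arrays.

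Of the 5 receptors 1 passed, Fgfr4 (20%, against 22.8% of all genes), and it rose. It read 5.38, 5.06 and 5.48 in normal glands, 5.70, 5.54 and 5.58 in non-metastatic tumours and 6.03, 5.94 and 6.29 in metastatic tumours. The 3 groups did not overlap, with metastatic tumours highest. These values stood at a median percentile of 45.78 within the arrays, and whether Fgfr4 RNA was present was not tested. The change was 0.54 (SE 0.12, adjusted p = 0.0182) and 0.78 in metastatic tumours alone (SE 0.14, adjusted p = 0.0157), where it was lost without metastatic tumour 1 or 3 (adjusted p = 0.0507 and 0.0576). With both groups together the adjusted p was 0.0523 and 0.0654 without normal glands 1 and 2, and at the lowest 0.00796 over the alternatives.

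Fgfr1, a receptor prominent in mesenchymal cells, read 8.93 to 9.43 in normal glands and 8.43 to 9.85 in tumours. Fgfr2, the receptor of Fgf7 and Fgf10 in epithelium, read 8.86, 9.41 and 7.80 in normal glands, 6.54, 7.77 and 9.73 in non-metastatic tumours and 9.08, 9.34 and 9.97 in metastatic tumours. It was spread most widely in non-metastatic tumours (SD 1.61, n = 3), and the change of 0.05 had a 95% interval from -1.46 to 1.55. Fgfr3 and the short receptor Fgfrl1, which lacks a kinase domain, differed by -0.42 and -0.62 with adjusted p of 0.343 and 0.205.

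Fgfbp1, a secreted carrier that frees FGFs from heparan sulphate, read 4.76, 8.28 and 4.53 in normal glands, 5.36, 6.41 and 5.34 in non-metastatic tumours and 8.35, 5.73 and 4.94 in metastatic tumours. It was high in normal gland 2, the array with high epidermal markers, and in metastatic tumour 1, where those markers averaged 6.13 in a range of 5.60 to 6.55 over the tumours. The part of skin in these values was not tested. The receptor adaptor Frs3 ranged from 5.48 to 5.74 over all arrays.

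The title of the series sets metastatic against non-metastatic tumours. In this comparison none of the 38 genes passed in limma, against 0.00572% of all genes tested, and 3 of the 38, Fgf1, Fgfr4 and Spry1, had an unadjusted p under 0.05, against 5.07% of all genes. Values of 29 of the 38 genes were higher on average in metastatic tumours (76.3%), as were 45.7% of all genes. The median difference was 0.14 against -0.02 over all genes. Among the marker lists, 10 of 10 fibroblast, 8 of 8 blood endothelial and 8 of 9 basal epithelial markers were higher too. So were 5 of 8 macrophage, 4 of 9 white adipocyte and 3 of 8 epidermis markers. Of luminal epithelial and skeletal muscle markers 2 of 10 and 0 of 10 were higher. The part of these cells in the shift was not tested. The tumour groups did not overlap for 4 of the 38 genes, Fgf1, Fgfr4, Fgf11 and Fgf8, all higher in metastatic tumours. Of all genes, 10.3% had no overlap (4.41% higher). For Fgf11 and Fgf8 the nearest tumours of the 2 groups read 6.15 against 6.16 and 5.81 against 5.82. Both genes had 1 value shared by 2 metastatic tumours.

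Fgf1, the acidic FGF that binds all FGF receptors, read 6.86, 6.70 and 7.44 in non-metastatic tumours and 8.08, 8.32 and 7.83 in metastatic tumours, with normal glands at 7.38, 7.16 and 7.12. Each metastatic tumour was above all other arrays. The difference between the tumour groups was 1.08 (SE 0.21, limma's unadjusted p = 0.000843, adjusted p = 0.762), or 2.11-fold, and its 95% interval ran from 0.60 to 1.56. Without non-metastatic tumour 3 it was 1.30 with an adjusted p of 0.0499, and over the alternatives the adjusted p ran from 0.0499 to 1. Against normal gland Fgf1 rose by 0.86 in metastatic tumours (SE 0.21, adjusted p = 0.0354), a call lost without any 1 of the 3 normal glands or 3 metastatic tumours (adjusted p from 0.018 to 0.102 over all alternatives). That call held under 10 of 17 alternatives. In non-metastatic tumours Fgf1 differed from normal gland by -0.22 (SE 0.21, adjusted p = 0.504).

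Fgfr4 was 0.48 higher in metastatic than in non-metastatic tumours (SE 0.14, adjusted p = 0.882). Fgf11 was 0.26 higher (SE 0.20, adjusted p = 0.892). Fgf8 read 5.81, 5.70 and 5.60 in non-metastatic tumours and 5.82, 5.93 and 5.82 in metastatic tumours, a difference of 0.16 (SE 0.11, adjusted p = 0.89). The tumours lay close to the range of normal glands, which read 5.97, 5.79 and 5.63.

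The other large differences came with overlapping groups. Fgfr2 differed by 1.45 (SE 0.76, adjusted p = 0.882), with non-metastatic tumours 1 and 2 low and non-metastatic tumour 3 among the high ones. Basal epithelial markers, 9 genes, had a mean of 8.40, 9.17 and 9.79 in the non-metastatic and 10.10, 10.19 and 10.14 in the metastatic tumours, and their part in the Fgfr2 values was not tested. Without non-metastatic tumour 1 the Fgfr2 difference was 0.71, and without non-metastatic tumour 3 it was 2.31.

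Spry1, an inhibitor known to limit epithelial branching, read 8.19, 8.29 and 7.93 in normal glands, 8.27, 7.94 and 8.83 in non-metastatic tumours and 9.16, 9.87 and 8.67 in metastatic tumours. Non-metastatic tumour 3 overlapped the metastatic range. The difference between the tumour groups was 0.89 (SE 0.32, adjusted p = 0.882). The lowest differences between the tumour groups were those of Dusp5 (-0.55, SE 0.45, adjusted p = 0.892), Fgf7 (-0.49, SE 0.76, adjusted p = 0.945) and Phlda1 (-0.18, SE 0.72, adjusted p = 0.982).

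A missed threshold does not show equal levels, so the intervals are given for genes that rose or fell in both tumour groups. The difference between the groups was 0.09 for Dusp6 (95% interval from -0.56 to 0.74) and 0.04 for Spred1 (from -0.26 to 0.35). It was 0.66 for Etv5 (from -0.23 to 1.56) and 0.22 for Etv4 (from -0.86 to 1.29). Among genes that fell in both, it was -0.07 for Fgf10 (from -0.45 to 0.31) and 0.13 for Fgf2 (from -0.27 to 0.53). Fgf13, which fell in both as well, differed by 0.01 (from -0.50 to 0.52).

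**Figure D4:**
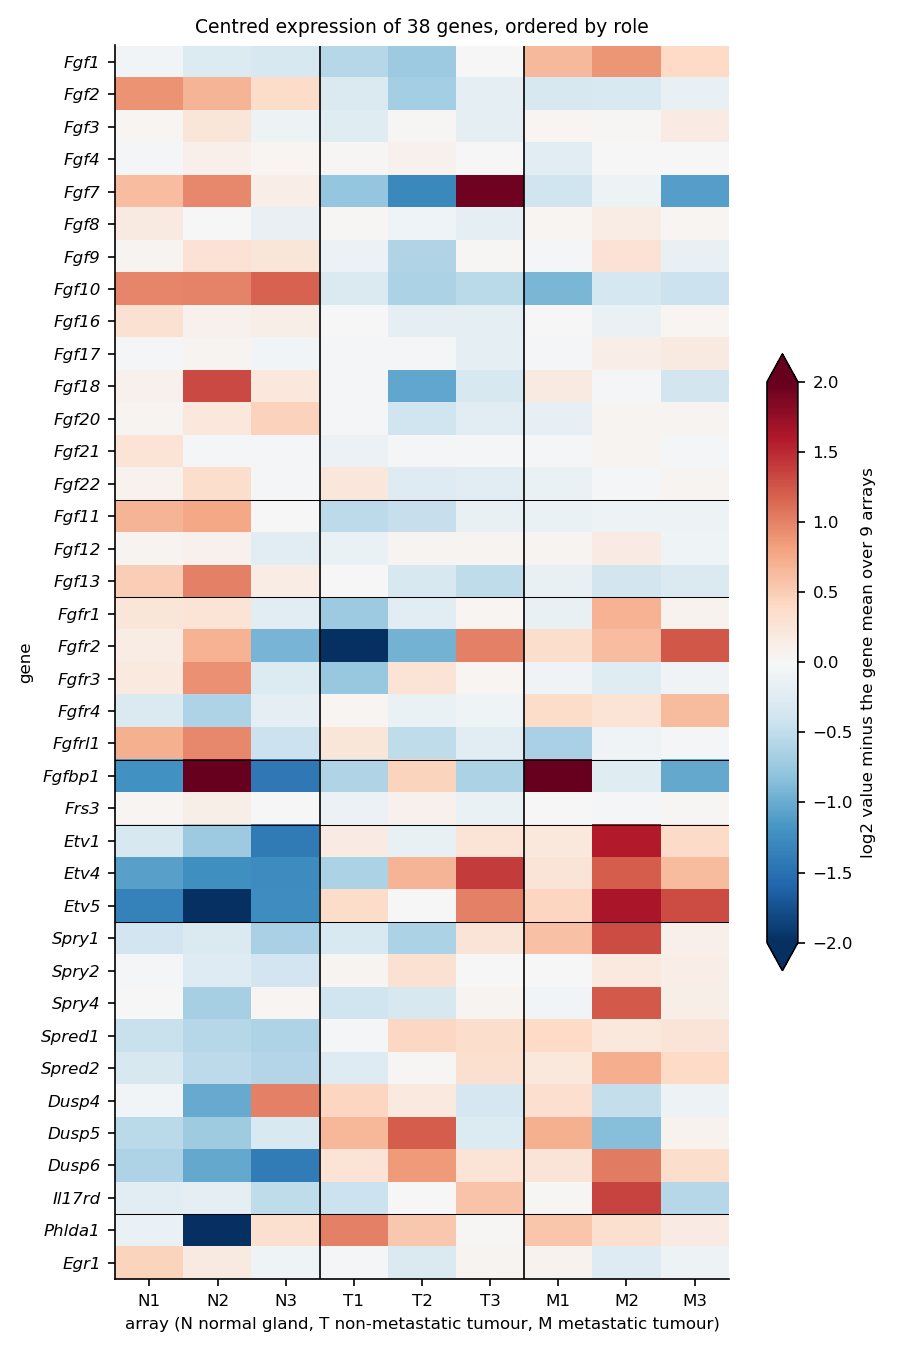
Log2 expression of 38 genes (rows, ordered by role with lines between roles) on 9 arrays (columns: N normal gland, T non-metastatic tumour, M metastatic tumour), each row centred on its mean over the 9 arrays, with the colour scale ending at 2 in either direction. ETS factors were low in all 3 normal glands, and metastatic tumour 2 held the highest tumour value for 7 of the 12 ETS and feedback genes.

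Single tumours differed in these genes. Metastatic tumour 2 held the highest value of the 6 tumours for 15 of the 38 genes, whereas it did so for 15.4% of all genes tested. Among the 12 ETS and feedback genes it was highest for 7, namely Etv1, Etv5, Spry1, Spry4, Spred2, Dusp6 and Il17rd, and lowest for 2, namely Dusp4 and Dusp5. Non-metastatic tumours 1 and 2 held the lowest value for 11 and 13 of the 38 genes, and for 20.4% and 19.6% of all genes.

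Other genes of the pathway were counted in lists chosen by function. Of 15 measured members of the relay from receptor to ERK, 6 rose and 1 fell with both tumour groups together (46.7%, against 22.8% of all genes), with a median change of 0.18. The largest rises were those of the RAS brakes Nf1 (0.60, SE 0.10, adjusted p = 0.00584) and Rasa1 (0.56, SE 0.11, adjusted p = 0.00968) and the exchange factor Sos1 (0.53, SE 0.09, adjusted p = 0.0076). Ksr1, a scaffold for the kinases, fell by 0.69 (SE 0.21, adjusted p = 0.0498). None of the 15 passed between the tumour groups.

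Of 13 tested further FGF, co-receptor and feedback genes, 1 passed (7.69%, against 22.8% of all genes), with a median change of 0.11. Klb, the beta-klotho co-receptor of Fgf21 found in fat and liver, read 9.36, 10.35 and 8.69 in normal glands and 4.75 to 5.77 in tumours, and fell by 4.33 (SE 0.36, adjusted p = 0.000576). White adipocyte markers fell in the same comparison, 9 of 9, and their part was not tested. Of 28 tested genes that make, cut or carry heparan sulphate, 2 rose and 1 fell (10.7%, against 22.8% of all genes). Their median change was 0.05. Hs2st1, a sulphotransferase of heparan sulphate, rose by 1.00 (SE 0.13, adjusted p = 0.00312). The membrane proteoglycan Sdc4 rose by 0.54 (SE 0.10, adjusted p = 0.0103), and Hpse, the enzyme that cuts heparan sulphate, fell by 1.48 (SE 0.35, adjusted p = 0.0201).

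Of 16 other immediate early genes, 1 rose and 1 fell (12.5%, against 22.8% of all genes), with a median change of -0.18. Nr4a1, an orphan nuclear receptor, rose by 1.08 (SE 0.32, adjusted p = 0.0456), and Dusp1, a phosphatase of stress kinases and ERK, fell by 1.61 (SE 0.41, adjusted p = 0.0269). The mean over the list spanned 8.23 to 9.19 in normal glands and 8.45 to 8.86 in tumours. The other 14, Fos and Jun included, did not pass.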

How the data were processed

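RNA from 3 normal mammary glands, 3 non-metastatic and 3 metastatic MMTV-Wnt1 tumours was measured on 1 array each. The deposited values are log2 expression of 41345 probe sets, made by the authors with RMA per the submitters' processing notes; its version and settings are not given in the sources used here. RMA equalises the distributions of arrays, so values are relative to the other genes of an array. Of the probe sets, 23521 had 1 gene symbol in the platform annotation, 1814 several and 16010 were not listed. Genes above the 30th percentile of their array on at least 3 arrays were kept. Differences were fitted with limma 3.58.1 in R 4.3.3, with 1 mean per group over 9 arrays, and p-values were adjusted by the Benjamini-Hochberg method over 17478 genes in each of 4 comparisons. The fit was tested on simulated data. Values on every array are given for genes past the threshold in any comparison, for those without overlap between the tumour groups, and for the 3 highest and 3 lowest changes in each comparison. The genes and lists were chosen with earlier results of these data known. Alternatives were other filters, the mean of probe sets, quantile normalisation, median centring, another variance prior, fits of the compared groups only, a replicate block and leaving out each array.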

Additional observations from a re-analysis of the deposited data

How the results depend on the processing

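Of 30 differences of single genes past the threshold against normal gland, 14 stayed past it under every alternative run and none reversed. The 14 were those of Fgf10, Dusp6, Etv5 and Spred1 in all 3 comparisons with normal gland and of Fgf2 in 2 of them. Fgf13 gave no value with the filter at the 50th percentile. Leaving out each array in turn gave 5 to 11 genes past the threshold with both tumour groups, 5 to 8 in non-metastatic tumours, 4 to 10 in metastatic tumours and 0 to 1 between the tumour groups, where the 1 was Fgf1. Fits of the compared groups only gave 5 genes in non-metastatic tumours in place of 8, with 8.77% of all genes in place of 18.8%. Between the tumour groups, Fgf7 turned from -0.49 to 0.50 without non-metastatic tumour 3 (range -1.12 to 0.50) and Phlda1 from -0.18 to 0.066 without non-metastatic tumour 1 (range -0.43 to 0.066). The cause was not tested.

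The titles number replicates 1 to 3 in each group, but these are different mice, and the deviations of arrays with the same number correlated between -0.28 and 0.17, so the numbers were not taken as pairs. With the number as a replicate block, 9 genes passed with both tumour groups in place of 11 (17.8% of all genes in place of 22.8%), 5 in non-metastatic tumours in place of 8 (12.9% in place of 18.8%), 8 in metastatic tumours in place of 11 (7.43% in place of 13.3%) and 0 between the tumour groups. With 3 arrays per group, differences small beside the spread between mice cannot be told from none.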

Other observations

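Low values were repeated exactly across arrays for some of the FGFs. Of the 38 genes, 12 had a value that recurred on 2 or more arrays, as did 28.6% of all genes tested. The value of Fgf21 recurred on 5 arrays, that of Fgf12 on 4 and that of Fgf20 on 3, and the cause was not tested.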
